A study of Homo sapiens with 12 samples.

Results

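The integrated stress response is carried out by a small set of transcription factors, and the mRNAs of ATF4, DDIT3, ATF3, ATF5, CEBPB, CEBPG and NUPR1 were followed in melanoma cells that received TYRO3 or a control plasmid. These 7 genes were chosen by name, with earlier results of the same libraries known, out of 35579 genes to which estimated counts could be assigned. All 7 were among the 15098 genes left for testing after low counts were filtered. The cells were of the human melanoma line WM-266-4, and every library came from cells with a stable lentiviral knock-down of the receptor tyrosine kinase TYRO3, grown with puromycin, transfected with jetPRIME and serum starved overnight. The control cells received a GFP plasmid in the pEZY-myc-his backbone, called the vector control in the study. The other groups received wild-type TYRO3 (WT), TYRO3 ΔGS, which carries I449A, or TYRO3 ΔADAM, which carries P408A, L409P and G419P. TYRO3 is cut first by ADAM proteases outside the membrane and then by γ-secretase inside it, which releases its intracellular domain, and the ΔADAM and ΔGS variants were made to resist these cuts. Each of the 4 groups was sequenced once in each of 3 experiments, giving 12 libraries, and the study asked how the full-length receptor and its released domain change the transcriptome.

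In the integrated stress response, kinases that sense misfolded proteins, amino acid shortage, double-stranded RNA or haem shortage phosphorylate the translation initiation factor eIF2. General protein synthesis then falls, while the ATF4 mRNA, which has short reading frames ahead of its coding sequence, is translated more. ATF4 pairs with C/EBP proteins and switches on genes of amino acid synthesis, amino acid transport and tRNA charging, together with the genes of further factors such as DDIT3, ATF3 and NUPR1. ATF4 and ATF5 are controlled largely at translation and DDIT3 in part, so the mRNA levels given here do not report the amount of protein. In melanoma, ATF4 is known as a repressor of MITF and is linked to a dedifferentiated, invasive state.

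TYRO3 itself separated the GFP libraries from the others, and it does not check the labels of the 3 constructs, which differ by point substitutions. It lay between 47.3 and 56.6 CPM (estimated counts scaled to a common library size with TMM factors) in the 3 GFP libraries and between 1181 and 3694 CPM in the 9 TYRO3 libraries. Its level was highest in experiment 1, where the TYRO3 libraries held 3064 to 3694 CPM, against 1181 to 1791 CPM in experiments 2 and 3. Library totals ran from 4008293 to 38184838 estimated counts, and GFP library 1, at the lowest total, stood apart from the next at 18365999. It is the only control of experiment 1, so results are given with and without it. All 8 melanocyte lineage markers were detected, and their summed level was 2292 to 2783 CPM in the GFP libraries, 1316 to 2550 CPM in the WT libraries, 1367 to 2293 CPM in the ΔGS libraries and 1357 to 2065 CPM in the ΔADAM libraries. The summed level of the markers of other cell types lay between 192 and 268 CPM in all 12 libraries. Of these 13 markers, 7 passed the filter. Most of the sum was the epithelial keratin KRT18, at 111 to 185 CPM, and LUM, the matrix proteoglycan lumican of fibroblasts, at 65.1 to 78.1 CPM in GFP libraries and 33.1 to 60.4 CPM in TYRO3 libraries. LUM fell by 0.66 ± 0.14 on the log2 scale in the mean of the TYRO3 groups (adjusted p = 0.0221 by edgeR), but was not called without GFP library 1. Without that library the same fit called 0.00652% of all genes. Of the other fibroblast markers listed, COL1A1 had 0.43 ± 0.40 and DCN -1.22 ± 0.40, both named after their values were seen. Neither was called, and COL1A2 did not pass the filter. The part of the markers of other cell types in the results was not tested. The T cell marker CD3E lay between 0 and 0.0553 CPM and the leukocyte marker PTPRC between 0.222 and 0.502 CPM.

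Promoter sequences are shown first because several of the 7 genes are known targets of the same factor. The RefSeq table (GRCh38.p14) holds 13 windows of 300 bases, from 250 bases before to 50 after a start site, for 6 of the 7 genes. TGATGNAA, the core of the composite site that ATF4 and C/EBP proteins bind together, was searched on both strands and was found in 2 of these 13 windows, and in 3.62% of all 35116 windows of the table. TGACGTCA, the palindrome bound by CREB and ATF dimers, was found in 0 of the 13 windows and in 1.85% of all windows. The stretches that hold TGATGNAA are printed 5′ to 3′ on the strand of the gene, with the match in capitals. Those of ASNS and CHAC1, which are among the target genes of ATF4 that hold a match, are printed with them. In CHAC1 the match is on the opposite strand and reads as its reverse complement. A match describes the letters and is not evidence of binding.
ATF3, upstream start site, chr1:212565191-212565248, plus strand: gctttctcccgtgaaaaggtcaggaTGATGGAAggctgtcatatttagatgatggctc
CEBPG, chr19:33374046-33374103, plus strand: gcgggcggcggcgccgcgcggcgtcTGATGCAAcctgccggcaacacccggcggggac
ASNS, chr7:97872444-97872501, minus strand: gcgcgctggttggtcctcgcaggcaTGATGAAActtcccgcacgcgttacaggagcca
CHAC1, chr15:40953237-40953294, plus strand: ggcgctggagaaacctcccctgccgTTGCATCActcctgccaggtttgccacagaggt

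The match in ATF3 lies 191 bases before the upstream start site of that gene, from which few reads came, as described below. The CEBPG match lies 42 bases before a RefSeq start site, inside the first intron of the transcript CEBPG-201 and ahead of the start of CEBPG-202. Among 27 other target genes of ATF4 and DDIT3 found in the table, 5 held TGATGNAA and 1 held TGACGTCA. Per window, as for the shares of all windows, these were 5 and 1 of 34 windows.

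ATF4 (22:39519695-39522685, plus strand of GRCh38) was by far the most abundant of the 7 mRNAs. It stood at 246, 211 and 282 CPM in the GFP libraries of experiments 1, 2 and 3. The WT libraries held 499, 254 and 453 CPM, the ΔGS libraries 389.8, 385 and 882 CPM, and the ΔADAM libraries 432, 350.4 and 761 CPM. All ΔGS and ΔADAM libraries lay above every GFP library, whereas WT library 2 fell within the GFP range. Every TYRO3 library was higher than the GFP library of its own experiment, by 0.26 to 1.64 in log2(CPM + 1). In a model over all genes that sets experiment 1 apart from the others, the log2 fold change from GFP was 0.72 ± 0.38 (SE, n = 3 libraries per group) for WT, 1.15 ± 0.38 for ΔGS and 1.06 ± 0.38 for ΔADAM.

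**Figure D1:**
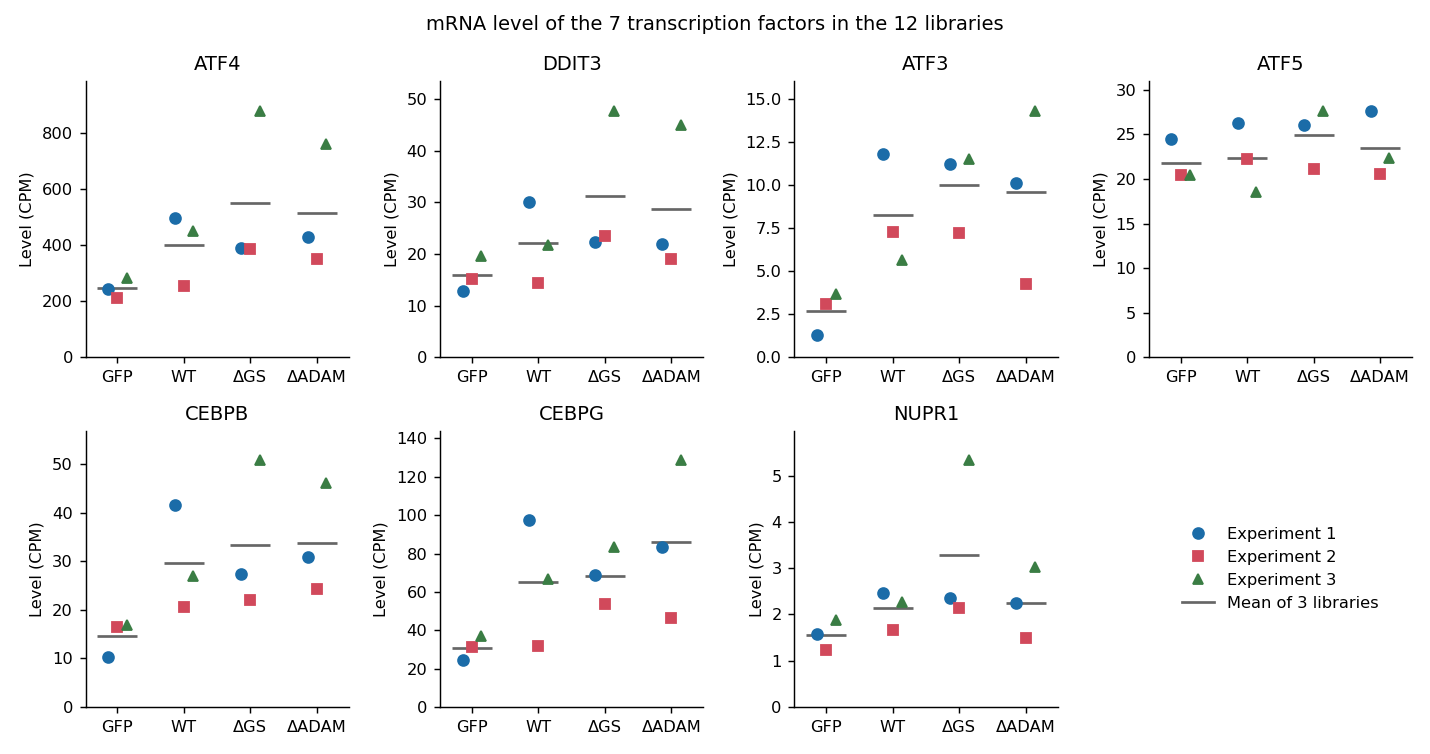
Level of each of the 7 mRNAs (CPM, linear axis from 0) in the GFP, WT, ΔGS and ΔADAM libraries, with a symbol for each experiment and a bar at the mean of 3 libraries. The ATF4 level of GFP cells, 211 to 282 CPM, lies below that of 8 of the 9 TYRO3 libraries, while the ATF5 panel shows groups that overlap.

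DDIT3 (12:57516588-57521737, minus strand) encodes CHOP, which takes over when stress persists and favours cell death. It lay at 12.9, 15.2 and 19.7 CPM in the GFP libraries, at 30.0, 14.4 and 21.8 CPM in the WT libraries, at 22.3, 23.4 and 47.8 CPM in the ΔGS libraries and at 22.0, 18.9 and 45.0 CPM in the ΔADAM libraries. The ΔGS libraries all lay above the GFP libraries, as they did for 11.1% of all genes tested. The WT and ΔADAM libraries overlapped the GFP libraries. In experiment 2 the WT library was lower than its GFP library by 0.0744 in log2(CPM + 1), and the other 8 pairs were higher, by up to 1.24. The fitted log2 fold change from GFP was 0.49 for WT, 0.94 for ΔGS and 0.83 for ΔADAM. Most of its counts, 50.1% to 80.0% per library, were assigned to the transcript DDIT3-201. The genes MARS and MBD6 overlap DDIT3 on the opposite strand, and whether the counting used strand is not given in the sources used here.

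ATF3 (1:212565334-212620777, plus strand), an early stress factor that represses many of its targets, showed the highest folds of the 7 at a low level. GFP libraries held 1.31, 3.07 and 3.69 CPM, WT libraries 11.8, 7.29 and 5.64 CPM, ΔGS libraries 11.2, 7.22 and 11.5 CPM and ΔADAM libraries 10.1, 4.24 and 14.3 CPM. In CPM all 9 TYRO3 libraries lay above all 3 GFP libraries, as they also did for CEBPB. In TPM the ATF3 ranges overlapped, with ΔADAM library 2 at 3.98 TPM and GFP library 3 at 5.45 TPM. The fitted log2 fold change from GFP was 1.37 ± 0.46 for WT, 1.67 ± 0.45 for ΔGS and 1.62 ± 0.45 for ΔADAM. GFP library 1 held 5.0 estimated counts of ATF3, and without that library the fold of the mean of the 3 TYRO3 groups went from 1.56 to 1.32 on the log2 scale. Of the ATF3 counts, 73.3% to 95.3% in each TYRO3 library belonged to ATF3-202, which starts at the downstream promoter. The share was 0, 81.6 and 51.1% in the GFP libraries of experiments 1, 2 and 3. The 0 in GFP library 1 rests on 5.0 counts and allows a share of up to 60.0%, by a floor of 3 counts that covers counting error only. The transcript ATF3-206, which starts upstream near the promoter match shown above, was at 0 in 10 of the 12 libraries, and was listed at 3.81 estimated counts in GFP library 1, or 76.2% of the few counts there, and 14.95 in ΔGS library 1. These shares were not tested.

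ATF5 (19:49928702-49933935, plus strand), a relative of ATF4 with a role in the mitochondrial stress response, differed least between the groups. It stood at 24.5, 20.4 and 20.5 CPM in the GFP libraries, at 26.3, 22.2 and 18.5 CPM in the WT libraries, at 26.1, 21.1 and 27.7 CPM in the ΔGS libraries and at 27.6, 20.5 and 22.4 CPM in the ΔADAM libraries. All groups overlapped, and only 4 of the 9 TYRO3 libraries lay above every GFP library. The fitted log2 fold change of the mean of the TYRO3 groups was 0.11 ± 0.11, with a 95% interval of the difference from -0.12 to 0.34. IL4I1 and NUP62 overlap ATF5 on the opposite strand.

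Both C/EBP family members were higher than GFP in all 9 pairs. CEBPB (20:50190734-50192689, plus strand), an intronless gene whose protein can act as an activator or, in its short form, as a repressor, lay at 10.3, 16.4 and 17.0 CPM in the GFP libraries. It lay at 41.6, 20.7 and 26.9 CPM in the WT libraries, 27.5, 22.1 and 50.9 CPM in the ΔGS libraries and 31.0, 24.4 and 46.1 CPM in the ΔADAM libraries. The lowest TYRO3 library was therefore above the highest GFP library. CEBPG (19:33373330-33382686, plus strand), a partner that ATF4 uses to bind its composite sites, stood at 24.7, 31.3 and 36.8 CPM in the GFP libraries. Its WT libraries held 97.6, 31.8 and 66.6 CPM, its ΔGS libraries 68.7, 53.5 and 83.2 CPM and its ΔADAM libraries 83.2, 46.4 and 129 CPM. WT library 2 was the only TYRO3 library of CEBPG that fell within the GFP range, and it exceeded its own GFP library by only 0.0220 in log2(CPM + 1). Fitted log2 fold changes of CEBPB were 0.98, 1.14 and 1.16 for WT, ΔGS and ΔADAM, and those of CEBPG were 1.01, 1.10 and 1.43.

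CEBPG was read from alternative starts. CEBPG-201 and CEBPG-202 share their coding sequence and differ in the first exon, and CEBPG-202 starts after the promoter match shown above. CEBPG-202 took 0, 2.86 and 9.0% of the CEBPG counts in the GFP libraries, 14.2, 15.7 and 9.69% in the WT libraries, 16.5, 9.51 and 19.6% in the ΔGS libraries and 10.9, 6.19 and 8.45% in the ΔADAM libraries. The share was higher than in the GFP library of the same experiment in 8 of the 9 pairs, and lower in ΔADAM library 3. The count of 0 in GFP library 1 rests on 93.7 counts of the gene and allows a share of up to 3.20%, by a floor of 3 counts that covers counting error only. These shares are estimates of kallisto for transcripts that overlap over most of their length, and they were not tested.

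NUPR1 (16:28532708-28539174, minus strand), a small chromatin-binding protein that stress induces, was the lowest of the 7. The GFP libraries held 1.58, 1.24 and 1.87 CPM, the WT libraries 2.47, 1.66 and 2.26 CPM, the ΔGS libraries 2.36, 2.14 and 5.33 CPM and the ΔADAM libraries 2.24, 1.501 and 3.03 CPM. ΔGS library 3 was far above the others, and the WT and ΔADAM libraries overlapped the GFP libraries. GFP library 1 rests on 6.1 estimated counts. Most NUPR1 counts went to NUPR1-201, of 5491 bases, with 59.3% to 92.2% per TYRO3 library. The short form NUPR1-202, of 550 bases, was at 0 in GFP library 1 and in WT libraries 1 and 2. By the same floor of 3 counts, these values of 0 allow shares of up to 49.2, 6.64 and 10.1%.

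Set side by side per length, in TPM, the 7 mRNAs spanned a wide range of levels in GFP cells. The mean TPM of the 3 GFP libraries was 270.2 ± 40.5 (SD) for ATF4, 29.8 ± 7.67 for DDIT3, 18.2 ± 1.102 for ATF5, 12.4 ± 3.10 for CEBPG, 11.6 ± 3.76 for CEBPB, 3.50 ± 1.84 for ATF3 and 1.08 ± 0.371 for NUPR1. Over the 9 TYRO3 libraries the means were 572 ± 213 for ATF4, 53.7 ± 20.9 for DDIT3, 30.9 ± 12.3 for CEBPG, 27.0 ± 8.29 for CEBPB, 21.0 ± 3.12 for ATF5, 9.32 ± 3.09 for ATF3 and 2.77 ± 1.89 for NUPR1. ATF5 thus ranked above CEBPG and CEBPB by mean level in GFP cells and below both in TYRO3 cells. For each of the 7 genes the GFP group had the lowest mean of the 4 groups, in CPM and in TPM. In CPM the order then ran through WT to the variants for all 7, and the WT, ΔGS and ΔADAM groups overlapped throughout.

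The size of the difference from GFP depended on the experiment. Averaged over the 3 constructs, the within-experiment difference of ATF3 was 2.38 in experiment 1, 0.80 in experiment 2 and 1.21 in experiment 3, in log2(CPM + 1). CEBPB differed by 1.59, 0.42 and 1.18, and CEBPG by 1.70, 0.44 and 1.26, so that experiment 2 gave the smallest difference for each. ATF4 differed by 0.83, 0.62 and 1.25, and DDIT3 by 0.88, 0.27 and 0.85. Experiment 1 held both the shallow GFP library and the highest TYRO3 levels, and their part in these differences was not tested. Over the 9 pairs, ATF4, ATF3, CEBPB, CEBPG and NUPR1 were higher than GFP in 9 of 9, and DDIT3 and ATF5 in 8 of 9. Of all genes tested, 12.7% were higher than GFP in 9 of 9 pairs, and 5.03% had all 9 TYRO3 libraries above all 3 GFP libraries. Since the genes were picked with these contrasts known, nothing is read from these counts, and the pairs of 1 experiment share a GFP library.

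**Figure D2:**
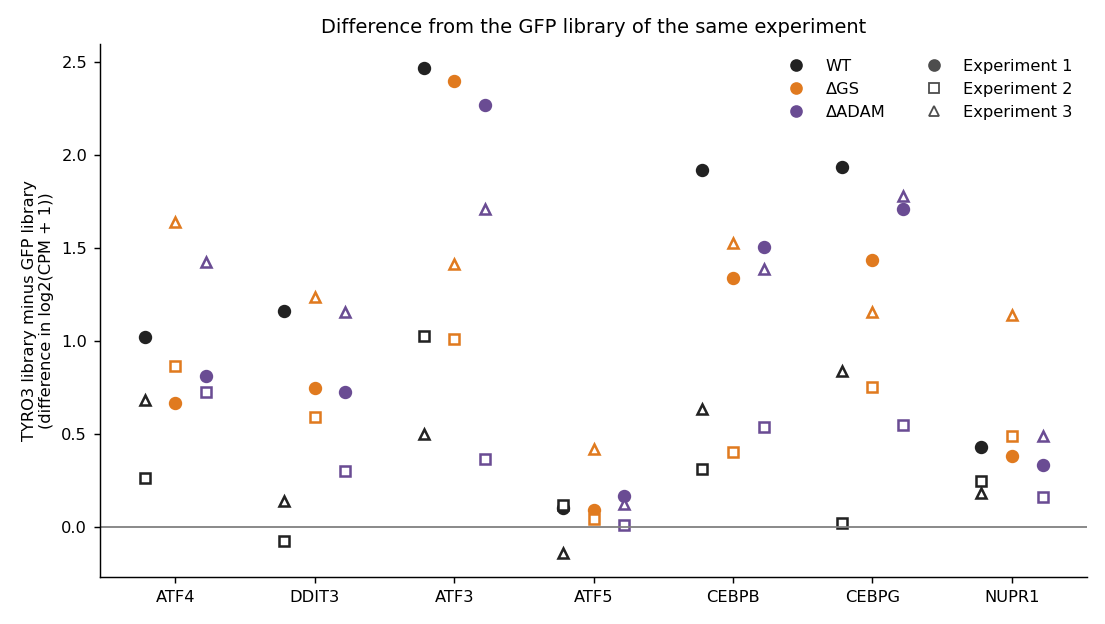
Difference in log2(CPM + 1) between each TYRO3 library and the GFP library of its experiment, for the 7 genes; colour gives the construct, and symbols give the experiment. The filled circles of experiment 1 lie highest for ATF3, at 2.27 to 2.47, and 2 points lie below 0, in DDIT3 and ATF5 of WT cells.

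Calls of single genes against GFP depended on the model of the experiments, the tool and the filter. A gene was called at a fold over 1.5 and an adjusted p of at most 0.05. When the edgeR model set experiment 1 apart from the others, following the batches that the study corrected for, 0 of the 7 genes were called in WT, ΔGS or ΔADAM against GFP, where 0.0397%, 0.457% and 1.11% of all genes were called. For the mean of the 3 TYRO3 groups 1 was called, ATF3, and 3.31% of all genes were. This call of ATF3 held without WT library 3, ΔGS library 2 or 3, or ΔADAM library 2, and was lost without any other library. With edgeR and a term for each experiment, the replicate block, 0 were called for WT against 2.35% of all genes. The block gave 4 for ΔGS (ATF4, ATF3, CEBPG and NUPR1) against 4.69% of all genes, 4 for ΔADAM (ATF4, ATF3, CEBPB and CEBPG) against 5.19%, and 4 for the mean of the TYRO3 groups (the same as for ΔADAM) against 5.68%.

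DESeq2, with experiment 1 set apart, called ATF3 for WT, ATF3 and CEBPB for ΔGS, and ATF3, CEBPB and CEBPG for ΔADAM and for the mean of the TYRO3 groups. Of all genes it called 2.49%, 4.03%, 4.44% and 4.98% in these comparisons. DESeq2 with the block called 3 of the 7 for WT (ATF4, ATF3 and CEBPB), 6 for ΔGS (all but ATF5), and 5 for ΔADAM and for the mean (all but ATF5 and NUPR1), where 4.04%, 5.5%, 5.8% and 5.95% of all genes were called. With edgeR and no filter on low counts, ATF3, CEBPB and CEBPG were called for WT, and these with ATF4 and DDIT3 for ΔGS, ΔADAM and the mean, against 2.22%, 3.03%, 3.48% and 3.69% of all genes. For the mean, edgeR with RLE size factors called ATF3 (500 of all genes), and limma on log2(TPM + 0.1) called CEBPB (424). Limma on log2(TPM + 1) called 0 of the 7 for the mean (359 of all genes). With no batch term and with experiments 2 and 3 alone, 0 were called as well (19 and 1 of all genes). At least 10 counts in every library left 5 of the 7 to test, and 0 were called for the mean (423 of 11881 genes). ATF5 was called by none of these fits.

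Without GFP library 1 edgeR called 0 of the 7 for the mean of the TYRO3 groups where experiment 1 was set apart, with 0.00652% of all genes called. Under the block it then called 0 for ΔGS, ΔADAM and the mean, with 1.75%, 1.88% and 2.51%. GFP library 3, left out alone under the block, also took these 3 counts to 0. Leaving out ΔGS library 2 took the ΔGS count to 0, and ΔADAM library 1 or 3 took the ΔADAM count to 0, while the count for the mean was 4 in these cases. Without WT library 3 the count for the mean was 6 and that for WT was 2. Without experiment 1, ATF4 alone was called under the block for the mean, where 2.17% of all genes were. These comparisons share the 3 GFP libraries, and the calls describe the genes that were chosen. Since the 7 genes were picked with these contrasts known, nothing is read from their counts beside the shares of all genes.

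Between the constructs no difference was called. WT TYRO3 differed from the mean of ΔGS and ΔADAM by -0.40 to -0.12 on the log2 scale, below 0 for all 7 genes, with an adjusted p of 1 for each in edgeR's quasi-likelihood test. For ATF4 the difference was -0.39, with a 95% interval from -1.12 to 0.35, and under the block it was -0.35, from -0.76 to 0.05. For DDIT3 it was -0.40, from -1.16 to 0.36. CEBPB had a difference of -0.17, from -0.86 to 0.51, and ATF3 of -0.27, from -1.07 to 0.52. Of all genes tested, 0.0% were called in this comparison by either fit, and an unadjusted p under 0.05 was reached by 119 genes, or by 237 under the block. Both counts are below 0.05 of the 15098 genes tested, the share that well-calibrated tests would give without any difference. These tests were therefore conservative. Over the 7 genes the intervals reach from -1.16 to 0.52, so the absence of a call does not show that the constructs act alike.

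**Figure D3:**
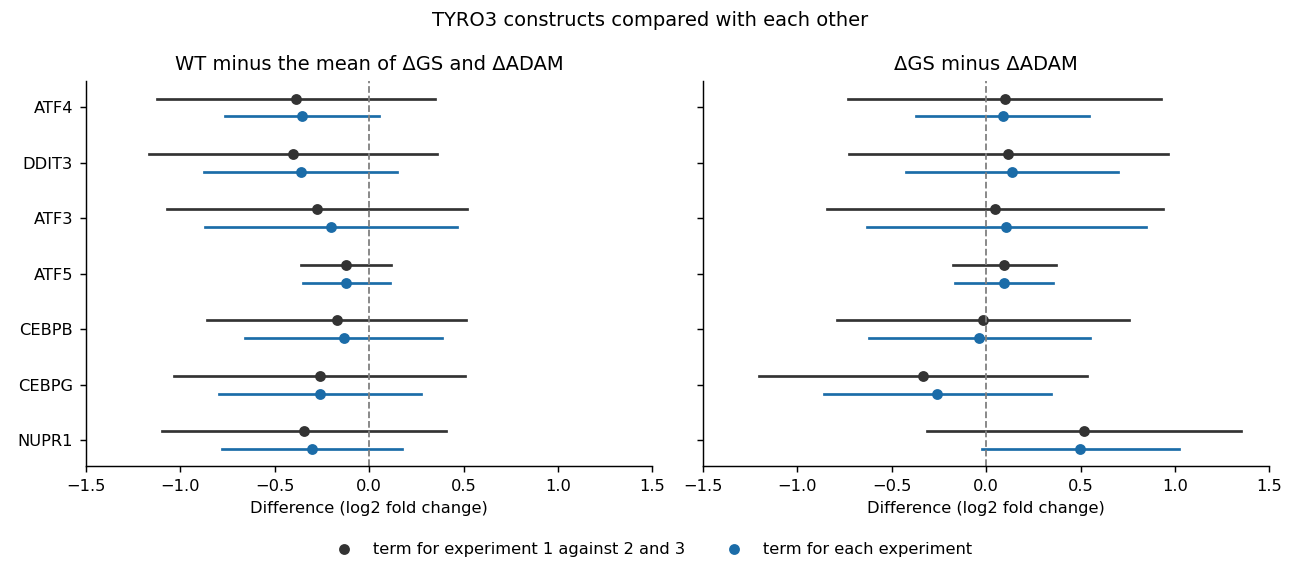
Log2 fold change between TYRO3 constructs for the 7 genes, with 95% intervals, from the fit with a term for experiment 1 against 2 and 3 and from the fit with a term for each experiment. All 7 points of WT minus the mean of the variants lie between -0.40 and -0.12, and each interval crosses 0.

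ΔGS and ΔADAM differed by -0.33 (CEBPG) to 0.52 (NUPR1), with an adjusted p of 1 for each. NUPR1 had a 95% interval from -0.31 to 1.35, and from -0.02 to 1.02 under the block, while CEBPG had one from -1.20 to 0.54. Again 0.0% of all genes were called by either fit, with an unadjusted p under 0.05 for 119 genes, or for 216 under the block. These counts too are below 0.05 of the genes tested. The order of the constructs changed between experiments. WT had the highest difference from GFP of the 3 constructs for 6 of the 7 genes in experiment 1 and for 2 in experiment 2, and the lowest for all 7 in experiment 3. Without experiment 1, WT minus the mean of the variants lay between -0.84 and -0.17 under the block, and again 0 of the 7 genes were called.

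The known targets of ATF4 and DDIT3 were examined next. The list of 40 genes, like the lists that follow, was written with earlier results of these libraries known. Nothing is therefore read from the counts or medians of these lists beside those of all genes. Of the 39 tested targets, 16 rose and 0 fell in the mean of the TYRO3 groups against GFP, where 1.79% of all genes rose and 1.52% fell. The median log2 fold change of the list was 0.96, against -0.0019 over all genes tested. Under the block 22 rose, and 3.48% of all genes did. Without GFP library 1 the count was 0, or 18 under the block, and without GFP library 2 it was 3, or 25 under the block. Leaving out another library gave 9 to 19, or 18 to 25 under the block, with the lowest for ΔADAM library 1. By construct, under the block, 16 rose with WT, 22 with ΔGS and 22 with ΔADAM, and these comparisons share the controls.

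STC2, a secreted glycoprotein, went from 8.42 to 13.4 CPM in the GFP libraries to 28.4 to 139 CPM in the TYRO3 libraries, a log2 fold change of 2.65 ± 0.50 (adjusted p = 0.0173). SLC6A9, a glycine transporter, rose by 1.93 ± 0.28 (adjusted p = 0.0113), and CTH, which makes cysteine, by 1.63 ± 0.36 (adjusted p = 0.0286). ASNS, the asparagine synthetase whose promoter match is printed above, rose from 87.3 to 192 CPM in GFP libraries to 254 to 535 CPM, by 1.62 ± 0.31 (adjusted p = 0.0183). CHAC1, which degrades glutathione, had the largest fold among these at 2.82 ± 0.80, but its adjusted p was 0.058, and it was called under the block (adjusted p = 0.00883). TRIB3, a pseudokinase that binds ATF4, likewise had 1.39 ± 0.47 (adjusted p = 0.0998) and was called under the block (adjusted p = 0.0266). DDIT4 and SESN2, which restrain mTORC1, had 0.74 ± 0.25 and 1.38 ± 0.56 (adjusted p = 0.0943 and 0.156). PPP1R15A, the stress-induced subunit of the eIF2 phosphatase, had 0.54 ± 0.26 (adjusted p = 0.235), and none of these last 3 was called by either fit. Targets of DDIT3 tied to cell death, TNFRSF10B and BBC3, had 0.31 and 0.22 and were not called either, nor was ERO1A, at -0.0039. BCL2L11, also tied to cell death, went the other way, at -0.43 (adjusted p = 0.0919, and 0.0135 under the block), and was called by neither fit. TNFRSF10B, BBC3, ERO1A and BCL2L11 were named after their values were seen.

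**Figure D4:**
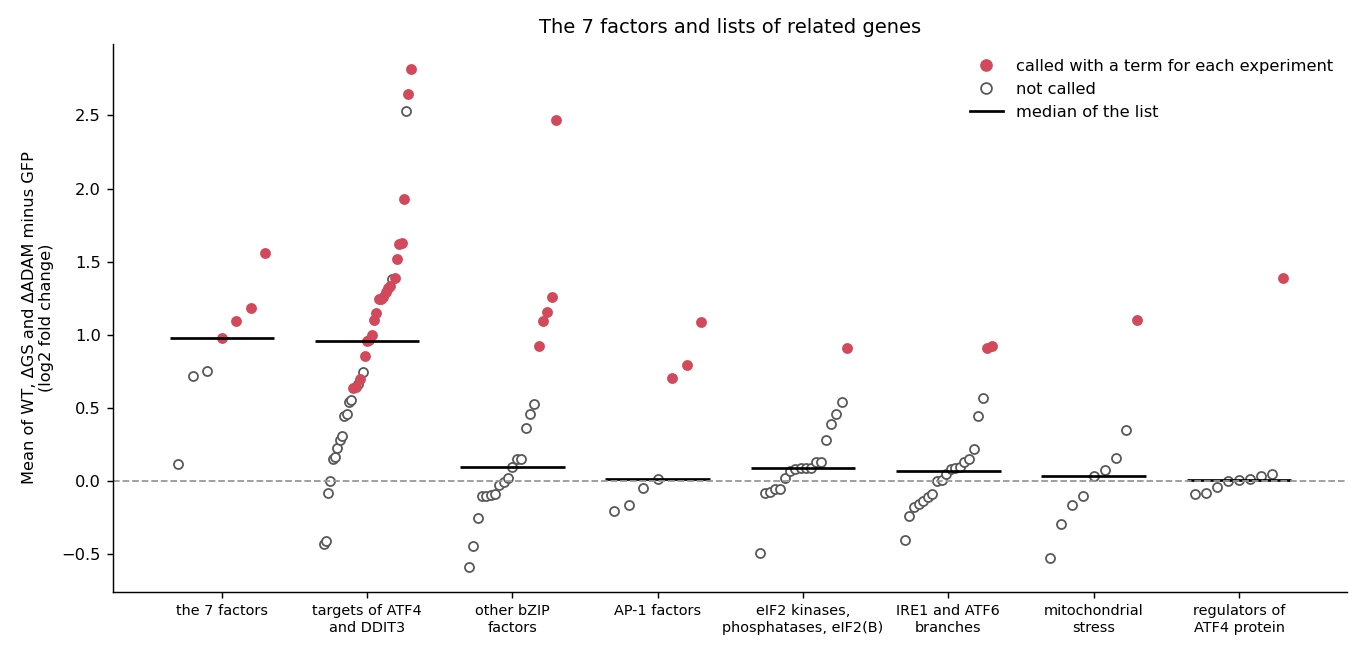
Log2 fold change of the mean of WT, ΔGS and ΔADAM against GFP (term for experiment 1 against 2 and 3) for each tested gene of the 7 factors and of 7 related lists, with the median of each list as a bar; filled points were called in the fit with a term for each experiment, and some genes are on more than 1 list. The median of the ATF4 and DDIT3 targets is 0.96, and those of the other related lists lie between 0.0041 and 0.0932. All lists were written with earlier results of these libraries known, so nothing is read from this contrast.

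Upstream of ATF4, of 18 genes for eIF2 kinases, phosphatase subunits, eIF2 and eIF2B, 0 were called in the mean of the TYRO3 groups against 3.31% of all genes. Under the block 1 was, against 5.68% of all genes, a share near that background. The gene was EIF2AK2, the kinase PKR that binds double-stranded RNA, at 0.91 ± 0.28 (adjusted p = 0.0734, and 0.00269 under the block). EIF2AK3, the kinase PERK of the endoplasmic reticulum, had -0.49 ± 0.13 (adjusted p = 0.0474), a fold under the threshold. EIF2AK1, which senses haem, and EIF2AK4, which senses amino acid shortage, had -0.0843 and 0.0898 and were not called. Of 20 genes of the IRE1 and ATF6 branches of the unfolded protein response, 0 were called, or 2 under the block, XBP1 and HERPUD1. The chaperones HSPA5 and HSP90B1 had 0.13 and 0.0013. Of 9 mitochondrial stress genes and of 9 regulators of ATF4 protein, 0 were called, and 1 of each under the block, GDF15 and TRIB3. Without GFP library 1 the block called EIF2AK2 alone among these lists, and without GFP library 2 it called 4 genes of the IRE1 and ATF6 branches. XBP1, HSPA5 and HSP90B1 were named after their values were seen.

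Related bZIP factors were examined last. The list held ATF, CREB, C/EBP and further bZIP factors other than the 7. Of its 21 tested genes, 3 rose and 1 fell, where 1.79% of all genes rose and 1.52% fell, and the median of the list was 0.0932. JDP2, which dimerises with JUN and ATF proteins and represses, rose from 2.63 to 4.30 CPM in GFP libraries to 6.74 to 38.0 CPM, by 2.47 ± 0.60 (adjusted p = 0.0380). CEBPD rose by 1.26 ± 0.28 (adjusted p = 0.0273) and BATF3 by 1.09 ± 0.28 (adjusted p = 0.0424), and TEF fell by 0.59 ± 0.13 on the log2 scale (adjusted p = 0.0301), which passed the fold threshold by a small margin and did not under the block. Of 7 AP-1 factors, FOSL1, JUNB and FOSL2 rose by 1.09 ± 0.24, 0.79 ± 0.18 and 0.71 ± 0.17 (adjusted p = 0.0277, 0.0301 and 0.0360), and JUN and FOS, named after their values were seen, had 0.0117 and -0.20. Under the block 5 genes of the bZIP list and 3 AP-1 factors rose, and 0 fell. Without GFP library 1 these counts were 0 and 0 in the bZIP list and 0 in the AP-1 list, and 3 and 1 rose under the block. Leaving out other libraries gave 0 to 3 genes that rose in each of these lists, and 0 of either without GFP library 3. The melanocyte markers MITF and DCT fell by 0.96 ± 0.18 and 1.18 ± 0.24 on the log2 scale (adjusted p = 0.0163 and 0.0205). Under the block edgeR called both as well (adjusted p = 0.00582 and 0.00863). Neither was called without GFP library 1, where 0.00652% of all genes were in the fit that sets experiment 1 apart. The other 6 lineage markers were not called by either fit. The part of the lineage markers in the levels of the 7 factors was not tested.

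The genes whose profiles over the 12 libraries were nearest to each factor were found by the root mean square difference of log2(CPM + 1), centred within experiments, among 9947 genes with a mean of at least 10 CPM. ATF4 was nearest to MSC (0.0984), HERPUD1 (0.0987) and HOXB9 (0.125), and DDIT3 to DDIT4 (0.112), CAPS (0.132) and SMOX (0.136). ATF4 and DDIT3 differed from each other by 0.155, less than either differed from the other 5 factors. The nearest to CEBPB were GDF15 (0.0620), FAM43A (0.120) and VGF (0.128), and to CEBPG they were VEGFA (0.133), KIF21B (0.155) and AKNA (0.166). ATF3 was nearest to LAMB3 (0.179), FOSL1 (0.204) and SRXN1 (0.205). For ATF5 they were TWF2 (0.0308), BUD23 (0.0382) and EIF6 (0.0383), and for NUPR1 GNG11 (0.0946), TIMM44 (0.105) and COX7A2L (0.109), where small values go with the small movement of these factors themselves. DDIT4, HERPUD1, VEGFA, GDF15 and FOSL1 are on the lists above, and the distances are a description of these libraries.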

How the data were processed

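RNA of 12 samples was sequenced after library construction with the TruSeq Stranded mRNA kit. Per the submitters' processing notes, tools included Trimmomatic 0.33, FastQC 0.11.9 and kallisto 0.46.0, and per the paper's methods the authors quantified transcripts of Ensembl 96. The deposited estimated counts and TPM per transcript carry no batch correction. The members and all gene lists were chosen with earlier results of these data known.

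Estimated counts were summed per gene through GENCODE 29 (169797 of 188753 transcripts, holding 97.4% to 97.5% of counts) and rounded. Testing used edgeR 4.0.16 (R 4.3.3, quasi-likelihood, TMM, filterByExpr at 10 counts and 15 in total), with groups and experiment 1 set apart from the others in place of the batch correction that the study describes, and Benjamini-Hochberg adjustment over all 15098 genes. Tested on simulated counts of 15098 genes for WT against GFP, it recovered 194 of 200 genes changed 4-fold, with 8 false calls among the unchanged genes. The simulated libraries held no differences between experiments, and only genes with higher counts were changed. The recovery therefore does not carry over to smaller folds, to low counts or to the real libraries.

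The labels number the experiments, which pairs the libraries. Deviations from group means correlated by 0.178 to 0.711 in 18 same-numbered pairs and by -0.543 to 0.0295 in 36 others. Deviations cancel within each group, so positive values in the same-numbered pairs by themselves push the others down. Because the labels pair the libraries, the fit with a replicate block is given where it changes a call. The sources used here do not state for the RNA samples that the experiments were separate cultures, so p-values measure the spread between these libraries, which may be technical. Genes were named as the 7 members, TYRO3, up to 3 per list and direction with the largest fold among those called, the 4 eIF2 kinases, 6 targets by name and the 3 nearest profiles per member. Alternatives were RLE size factors, DESeq2 1.42.0, limma 3.58.1 on log2(TPM + 1) and log2(TPM + 0.1), other filters, no batch term, subsets of libraries and each library left out. The replicate block with DESeq2, with each library left out and without experiment 1 was added after seeing the data, as were the list counts with each library left out.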

Additional observations from a re-analysis of the deposited data

How the results depend on the processing

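The differences of the 7 genes from GFP were above 0 under every alternative run except for ATF5 in WT against GFP, which lay between -0.0635 and 0.1591 and was below 0 without WT library 1 or 2, with and without the block. No alternative called a difference between constructs for any of them. Depth limits ATF3 and NUPR1 most, at 5.0 and 6.1 estimated counts in GFP library 1.

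Counts of genes called against GFP, in the order WT, ΔGS, ΔADAM and the mean of the TYRO3 groups, were 6, 69, 168 and 500. They were 355, 708, 784 and 857 with the replicate block, which rests on the pairing of libraries by experiment, 376, 609, 670 and 752 with DESeq2 and 610, 830, 875 and 898 with DESeq2 and the block. With no filter they were 562, 765, 879 and 933, with no batch term 3, 4, 5 and 19, and with experiments 2 and 3 alone 1 in each. Limma gave 2, 1 and 43 for the constructs with log2(TPM + 1) and 2, 6 and 20 with log2(TPM + 0.1). A fit of only the groups compared gave 1, 1 and 11. At least 10 counts in every library gave 107 for ΔGS, and no fold threshold gave 986 for the mean. Leaving out a library gave 1 to 20, 1 to 137, 1 to 449 and 1 to 610, and with the block 79 to 606, 269 to 777, 198 to 870 and 384 to 974. For WT against the variants and for ΔGS against ΔADAM, where 0 were called, DESeq2 gave 1 and 1, no filter 6 and 5, and DESeq2 with the block 5 and 1, and leaving out a library gave 0 to 0 and 0 to 1. The causes were not tested.

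Under the block without experiment 1 the counts were 47, 189, 218 and 324. Differences between ΔGS and ΔADAM that reversed were -0.0042 for ATF4 by limma with either pseudocount, -0.0098 for ATF3 and 0.0338 for CEBPB in experiments 2 and 3 alone, and 0.0083 for CEBPB under the block without experiment 1. With a library left out, with or without the block, the difference of ΔGS from ΔADAM ran from -0.42 to 0.51 for ATF4, -0.29 to 0.63 for ATF3, -0.061 to 0.17 for ATF5, -0.32 to 0.61 for DDIT3, -0.49 to 0.30 for CEBPB, -0.62 to 0.20 for CEBPG and -0.035 to 0.81 for NUPR1. That of WT from the mean of the variants ran from -0.61 to 0.20 for ATF3, -0.21 to 0.0085 for ATF5, -0.62 to 0.14 for CEBPB and -0.70 to 0.095 for CEBPG.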
